A study of Mus musculus with 6 samples.

Results

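The constitutive proteasome genes were the 36 genes of the count table whose symbols are Psma, Psmb, Psmc or Psmd followed by a number, without the immunoproteasome genes Psmb8, Psmb9 and Psmb10. They were chosen by symbol among 49315 genes, and 34 of them were among the 15847 genes abundant enough to be tested. Of the 36, 16 encode the core particle and 20 carry the symbols of the regulatory particle. Messenger RNA came from the gastrocnemius of male C57BL6J mice, an inbred strain, injected there at 5 months of age with an AAV9 virus and sampled 5 months later. In 3 libraries the virus carried CAAHR (AAV9-HSA-CAAHR, replicates 31, 34 and 36, called CAAHR muscles here), a mouse aryl hydrocarbon receptor without its ligand-binding domain, which is active with no ligand. In the other 3 it carried green fluorescent protein (AAV9-HSA-GFP, replicates 42, 43 and 46, called GFP muscles here). The human skeletal actin (HSA) promoter drives both transgenes in muscle fibres, not every fibre need take up the virus, and every library came from injected muscle, so uninjected muscle is not analysed here.

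The proteasome is the protease that degrades proteins tagged with ubiquitin. Its core particle is a barrel of alpha rings, which gate the entry, and beta rings, which hold the catalytic sites. The regulatory particle caps the barrel with a base of ATPases that unfold the substrate and a lid that removes ubiquitin, and several dedicated chaperones assist assembly of the base. In skeletal muscle this system degrades much of the contractile protein lost during wasting.

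Library totals lay between 43432994 and 58825752 counts. Ahr, the gene delivered, was at 9.97 to 22.8 CPM, counts scaled to the size of the library by TMM (trimmed mean of M values), in CAAHR muscles and at 1.87 to 2.55 CPM in GFP muscles, and the libraries went with their labels. The 8 fast-fibre markers, among them Acta1 and Ckm, summed to 132999 to 177375 CPM against 211286 to 212910 CPM, so the labelled tissue showed its defining transcripts. Of these 8 markers, 4 (Acta1, Ckm, Tnnt3 and Tnni2) were called lower in CAAHR muscles by edgeR, and their part in the results was not tested. The labels do not name the animal of each library, and p-values measure only the spread between these samples. In bulk RNA, fewer cells of a type and less RNA per cell cannot be told apart.

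Promoter sequence is shown for the member that was called, Psmd5, and for the catalytic genes Psmb5 and Psmb6, whose windows hold letters that match the element bound by NFE2L1 and NFE2L2 with small MAF proteins, since Nfe2l1, Nfe2l2 and Mafk themselves rose. The runs are the 250 bases before the RefSeq start (GRCm38.p6), read 5′ to 3′ along the gene. Psmd5 is at chr2:34870963-34871212 on the minus strand, Psmb5 at chr14:54617996-54618245 on the minus strand and Psmb6 at chr11:70525107-70525356 on the plus strand. Capitals mark GCGTG, the core of the site bound by AHR with its partner ARNT, or its reverse complement CACGC, and TGACNNNGC, the core of the antioxidant response element.
Psmd5: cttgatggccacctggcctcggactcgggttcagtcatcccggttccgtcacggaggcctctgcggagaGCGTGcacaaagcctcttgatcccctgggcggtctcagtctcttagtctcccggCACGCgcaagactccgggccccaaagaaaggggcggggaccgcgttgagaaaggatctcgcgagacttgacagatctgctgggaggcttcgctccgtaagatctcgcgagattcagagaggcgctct
Psmb5: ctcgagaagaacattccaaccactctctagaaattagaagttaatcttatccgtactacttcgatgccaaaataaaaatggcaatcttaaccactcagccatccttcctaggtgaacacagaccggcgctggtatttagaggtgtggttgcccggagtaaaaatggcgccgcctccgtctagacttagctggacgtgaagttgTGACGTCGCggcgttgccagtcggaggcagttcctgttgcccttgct
Psmb6: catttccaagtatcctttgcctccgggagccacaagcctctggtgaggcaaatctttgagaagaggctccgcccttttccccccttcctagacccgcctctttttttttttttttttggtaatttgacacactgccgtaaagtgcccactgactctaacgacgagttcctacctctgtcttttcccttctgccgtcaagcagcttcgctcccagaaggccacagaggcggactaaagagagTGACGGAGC
In Psmd5 both capital runs are GCGTG cores, 1 on each strand, starting 181 and 127 bases before the start. In Psmb5 and Psmb6 the capital run is the match to TGACNNNGC, starting 47 and 9 bases before the start. Psmb5 also has a GCGTG core starting 17 bases after the start, beyond the run shown.

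In windows of 300 bases, from 250 before to 50 after the start, both strands were searched, and RefSeq gave a window for 29 of the 36 members. GCGTG was in 14 of the members' 31 windows (45.2%) and in 32.4% of all 32851 windows. These were windows of Psma1, Psma2, Psma3, Psma4, Psma5, Psma7, Psmb4, Psmb5, Psmc2, Psmc4, Psmd1, Psmd2, Psmd5 and Psmd14. Of these 14 genes only Psmd5 was called in the main edgeR fit, which called 7.6% of all tested genes. Whether AHR acts on any of them was not tested. TGACNNNGC was in 5 (16.1%), those of Psmb5, Psmb6, Psmc6, Psmd9 and Psmd12, and in 12.4% of all. CCAAT, the box bound by NF-Y, was in 12 (38.7%) against 37.4%, and GGGCGG, bound by SP1, in 18 (58.1%) against 35.7%. These are matches of letters and not sites, and a GCGTG core can overlap a GGGCGG box only at an end base. The base composition of the members' windows was not compared with that of all windows.

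In muscle with active AHR most proteasome transcripts lay near their level in the GFP controls, with a 95% interval within 1.5-fold in either direction for 32 of 34 tested members. Psmd5, a chaperone of the base that is not part of the finished particle, rose 1.36-fold and was the 1 member of 34 tested (2.94%) with an adjusted p under 0.05 (edgeR quasi-likelihood test, Benjamini-Hochberg). The share of all tested genes called was 7.6%, 3.04% being higher and 4.57% lower in CAAHR muscles. Among the members 0 were called lower. An unadjusted p under 0.05 was reached by 3 members (8.82%), Psmd5, Psmd8 and Psmd14, where the share over all tested genes was 23.9%. DESeq2 called 2 members, Psmd5 and Psmd8, where its share over all tested genes was 12.1%.

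The fitted log2 fold change, AAV9-HSA-CAAHR over AAV9-HSA-GFP, was above 0 for 22 members and below 0 for 12. Of all tested genes 51.2% were above 0. The median log2 fold change over the 34 was 0.06, beside 0.01 over all tested genes and 0.06 over the 7011 tested genes whose mean CPM lay within the range of the members. The median size of the change, without its sign, was 0.10 for the members, 0.21 over all tested genes and 0.16 in the same range of CPM. That range runs from Psmd10 to Psmd2, and genes were not matched to the members in level within it. Psmd5 and Psmd8 were the members whose interval reached beyond 1.5-fold, and the interval included no change for 31. Standard errors ran from 0.08 to 0.13. How many members lay above 0 depended on the scaling, with 15 under upper quartile scaling and 28 with library size only. These scalings also moved the median of all genes, to -0.06 and 0.09, and the median of the members less that of all genes was 0.05 under each.

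**Figure D1:**
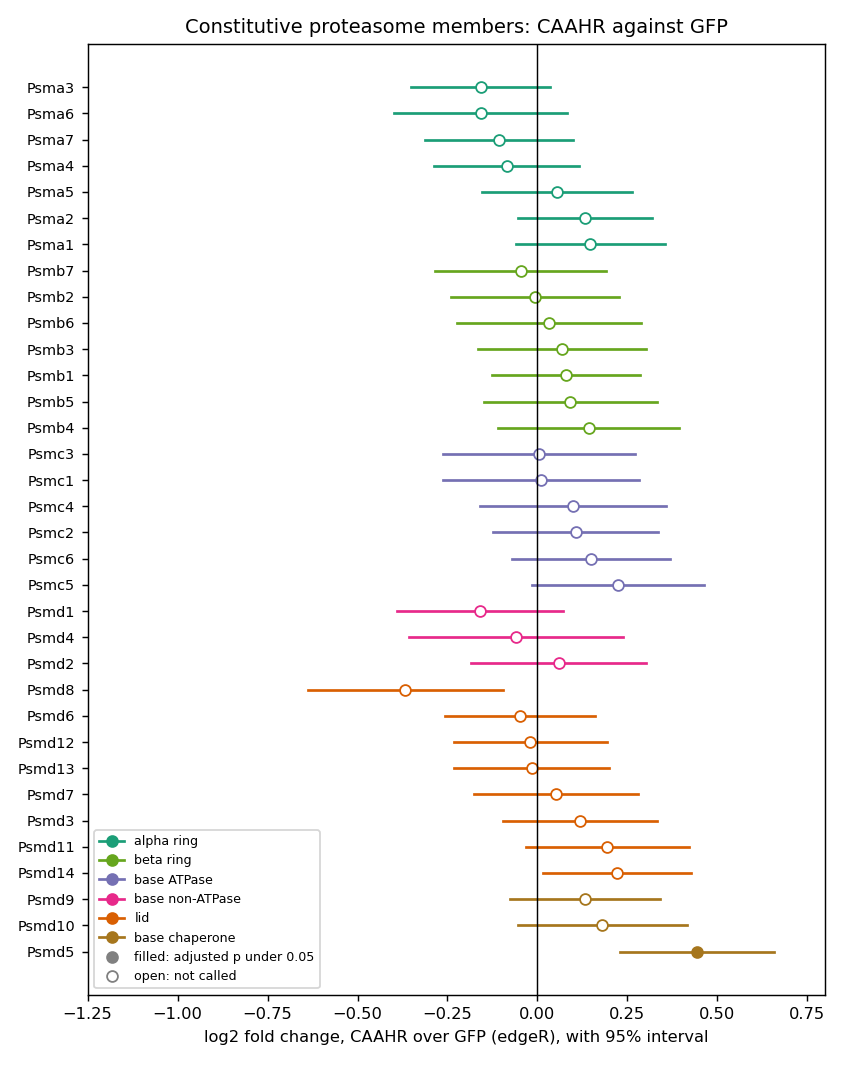
Fitted log2 fold change (horizontal axis, AAV9-HSA-CAAHR over AAV9-HSA-GFP) with its 95% interval for the 34 tested members, coloured by role and ordered within each role. Intervals of 31 members cross 0, Psmd8 lies lowest at -0.37, and Psmd5 lies highest at 0.44 and has the filled symbol of a called gene.

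The chaperones of the base had the least transcript of the tested members. In all 3 of them the groups did not overlap, as in 3 of 7 tested alpha-ring and 2 of 8 tested lid members, and the share of all tested genes without overlap was 29.9%. Psmd5 (chr2:34849734-34874968, minus strand) was at 22.2, 20.3 and 23.5 CPM in CAAHR replicates 31, 34 and 36, and at 16.2, 16.5 and 15.8 CPM in GFP replicates 42, 43 and 46. Every CAAHR library was above every GFP library. The log2 fold change of Psmd5 was 0.44 ± 0.10 (SE), its 95% interval 1.17-fold to 1.58-fold, and its adjusted p 0.0237 by edgeR. The call held under other scalings and filters and with DESeq2 and limma-voom. It was lost without CAAHR replicate 31 (adjusted p 0.0665), CAAHR replicate 36 (0.104), GFP replicate 42 (0.0637), GFP replicate 43 (0.0732) or GFP replicate 46 (0.0757), with log2 fold changes of 0.39 to 0.46 in those fits. Those fits called 3.28% to 5.17% of all tested genes. Over all alternatives the adjusted p of Psmd5 ran from 0.00398 to 0.396.

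The highest of these p-values came with the slow-fibre level as a covariate, which took the log2 fold change of Psmd5 to 0.30. Slow-fibre markers summed to 683 to 2913 CPM in CAAHR muscles and 239 to 520 CPM in GFP muscles. All 9 were fitted above 0, 6 of them without overlap between groups, and 0 were called (7 at an unadjusted p under 0.05 by edgeR). No slow-fibre marker was at 0 in any library.

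The other chaperones of the base had smaller fitted changes. Psmd10, also known as gankyrin, was at 9.79, 9.80 and 9.32 CPM against 8.72, 8.32 and 8.46 CPM, a log2 fold change of 0.18 with an adjusted p of 0.338. Psmd9 was at 16.3, 17.8 and 17.8 CPM against 15.6, 15.6 and 16.2 CPM, a log2 fold change of 0.13 with an adjusted p of 0.429. In both genes the lowest CAAHR library was above the highest GFP library, by 0.11 CPM in Psmd9 and by 0.59 CPM in Psmd10. Of the 75-base windows in the exons of Psmd9, 24.3% are shared with the opposite-strand transcript Gm26745, and whether the libraries kept strand is not stated, so reads of these genes may not be separable. With the 3 chaperones set apart, 0 of 31 tested subunits were called and the lowest adjusted p was 0.0997 (2 at an unadjusted p under 0.05, and 1 called by DESeq2).

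**Figure D2:**
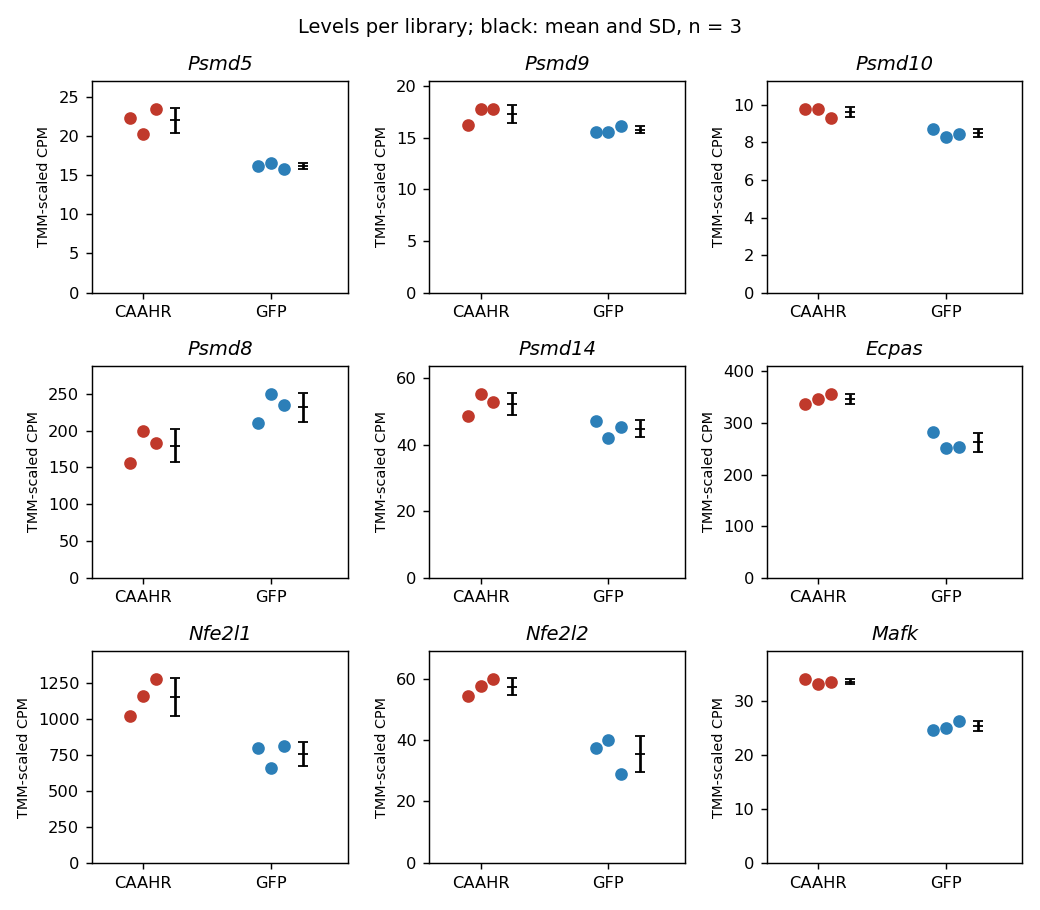
TMM-scaled CPM in each library (vertical axes start at 0) for 5 regulatory members, the proteasome-binding gene Ecpas and the transcription factor genes Nfe2l1, Nfe2l2 and Mafk, with the mean and SD of the 3 libraries of each group in black. In each panel the red AAV9-HSA-CAAHR points and the blue AAV9-HSA-GFP points do not overlap, and Psmd8 is the panel in which the AAV9-HSA-CAAHR points are the lower ones. The 5 members shown are all those without overlap among 20 regulatory members (25%), beside 29.9% of all tested genes. Of these 5 only Psmd5 was called by edgeR.

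The lid held the member with the lowest fitted change. Psmd8 (chr7:29174188-29180701, minus strand), a lid subunit, was at 156, 199.9 and 183 CPM in CAAHR muscles and at 211, 249.98 and 234 CPM in GFP muscles. The groups did not overlap, and CAAHR replicate 31 was the lowest library. Its log2 fold change was -0.37 ± 0.12 (SE), a ratio of 0.776 (95% interval 0.642 to 0.936), with an adjusted p of 0.0997 by edgeR. Its adjusted p fell below the threshold with DESeq2 (0.0407), with no filter on low counts (0.0412) and without CAAHR replicate 34 (0.0416), and it ran up to 0.601 over the alternatives, the highest being with the slow-fibre covariate.

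Psmd14 (chr2:61711694-61800376, plus strand) encodes the metalloprotease of the lid that cuts ubiquitin chains from substrates. It was at 48.5, 55.2 and 52.8 CPM in CAAHR muscles and 47.1, 42.1 and 45.2 CPM in GFP muscles, so that the lowest CAAHR library lay just above the highest GFP library. Its log2 fold change was 0.22 ± 0.09 (SE), with an adjusted p of 0.181. Of the 8 lid subunits, 4 were fitted above 0 and 4 below, and their median log2 fold change was 0.02. Psmd5, Psmd8 and Psmd14 share no 75-base window of exon sequence with another gene.

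The base ATPases form a ring that unfolds the substrate and opens the gate of the core. All 6 were fitted above 0, 0 were called and 0 had an unadjusted p under 0.05 by edgeR, or were called by DESeq2, and in none did the groups separate. Psmc5 had the highest log2 fold change of the ring, 0.22 with an adjusted p of 0.238, at 124, 149 and 148 CPM against 119.5, 114 and 128 CPM. Psmc3 had the lowest, 0.0043 (95% interval -0.26 to 0.27), at 167, 218 and 202 CPM against 191, 187 and 208 CPM, and it was negative under upper quartile scaling, at -0.07. For 4 of the 6 ATPases, CAAHR replicate 31 was the lowest of all libraries.

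The base subunits without ATPase activity are large scaffolds and a ubiquitin receptor. Psmd2, a scaffold that docks shuttle receptors and the member with the most counts, was at 306, 342 and 354 CPM against 347, 300.3 and 315 CPM, with a log2 fold change of 0.06 that turned to -0.01 under upper quartile scaling. Psmd1, the other scaffold, was at 202, 215 and 198 CPM against 235, 208 and 245 CPM, with a log2 fold change of -0.16 and an adjusted p of 0.387. The groups overlapped in both. Psmd4, the receptor, lay between them at -0.06, and it had the largest spread of any tested member, with a coefficient of variation of 16.0% in CAAHR muscles.

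In the core particle 0 of 14 tested genes were called and 0 had an unadjusted p under 0.05 by edgeR, DESeq2 called 0 as well, and the lowest adjusted p was 0.305. The 95% intervals of its members together spanned ratios from 0.759 to 1.31. The alpha ring, which has no catalytic site, was split, with 3 members fitted above 0 and 4 below and a median log2 fold change of -0.09. Psma1 was at 68.4, 67.7 and 75.4 CPM against 64.7, 59.6 and 66.7 CPM, a log2 fold change of 0.15. Psma3 was at 102, 104 and 96.6 CPM against 113, 113 and 112 CPM, a log2 fold change of -0.16. Neither overlapped between groups, their directions were opposite, and their adjusted p-values were 0.375 and 0.305. The GFP libraries were closest together in Psma3, with a coefficient of variation of 0.247%.

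The beta ring was fitted above 0 for 5 of 7 members, with a median log2 fold change of 0.07, and none of its members separated the groups. Psmb4, a beta subunit without catalytic activity, had the highest value, 0.14, at 95.8, 115 and 119.6 CPM against 95.9, 95.2 and 109 CPM. Psmb7 (chr2:38588036-38644087, minus strand), the subunit with trypsin-like activity, had the lowest, -0.05, at 168, 206 and 192 CPM against 189, 196 and 199.6 CPM. With library size only as scaling, Psmb7 was at 0.03. It shares 405 exonic bases with Nek6 on the opposite strand, as Psmc3 shares 215 with Slc39a13, so reads there may not be separable. Psmb5 (chr14:54614119-54618022, minus strand), with chymotrypsin-like activity, was at 72.3, 88.2 and 86.5 CPM against 74.5, 73.7 and 83.7 CPM, a log2 fold change of 0.09. Psmb6 (chr11:70525367-70527858, plus strand), with caspase-like activity, was at 86.4, 108 and 109 CPM against 96.4, 95.03 and 105.5 CPM, a log2 fold change of 0.03 that was -0.04 under upper quartile scaling. In Psmb4, Psmb5, Psmb6 and Psmb7 alike CAAHR replicate 31 was the lowest library of its group and the groups overlapped. Of the 75-base windows of Psmb5, 36.8% are also found elsewhere, mainly in the processed pseudogene Gm3375, and since only uniquely mapped reads were counted its level may be understated.

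Further core genes are known from other organs. Psma8, an alpha subunit of the testis, had 4, 4 and 0 counts in CAAHR muscles and 3, 1 and 1 in GFP muscles. Psmb11, the catalytic subunit of the thymus, had 1 count in CAAHR replicate 34, 1 in GFP replicate 46 and 0 in the other libraries. Both were too low to test, and no fold is given.

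The proportion of core to regulatory transcripts did not separate the groups. The summed CPM of the core members divided by that of the regulatory members was 0.478, 0.471 and 0.486 in CAAHR muscles and 0.470, 0.488 and 0.489 in GFP muscles. The means were 0.479 ± 0.007 and 0.482 ± 0.011 (SD, n = 3), and the groups overlapped. The median log2 fold change was 0.04 for the 14 core members and 0.08 for the 20 regulatory members, and their difference, -0.04, was less than the 0.042 (SD) by which it varied between replicates. Without the chaperones the regulatory median was 0.05 over 17 genes. All members together came to 3375, 3876 and 3810.0 CPM against 3671, 3542 and 3802 CPM, or 0.337% to 0.388% of scaled counts, with group means of 3687 ± 272 and 3672 ± 130 CPM (SD, n = 3).

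The groups did not overlap for 8 of the 34 members (23.5%), beside 29.9% of all tested genes. In 6 of these the AAV9-HSA-CAAHR libraries were higher, Psma1, Psma2, Psmd5, Psmd9, Psmd10 and Psmd14, beside 15% of all tested genes, and in Psma3 and Psmd8 they were lower. Within groups the median coefficient of variation of the members was 7.58% in CAAHR muscles and 5.72% in GFP muscles. It was 8.94% and 7.86% for genes in the same range of CPM, which were not matched to the members in level within that range.

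The level of the members differed between libraries of a group. Against the mean of the GFP libraries, the median member in log2 CPM was at -0.08, 0.12 and 0.14 in CAAHR replicates 31, 34 and 36, and at -0.01, -0.06 and 0.05 in GFP replicates 42, 43 and 46. By this median CAAHR replicate 31 was below the GFP libraries and the other CAAHR libraries above them. In CAAHR replicate 31 the median was -0.098 over the core members and 0.20 over the chaperones of the base. Over the regulatory members it was -0.063, beside -0.064 in GFP replicate 43. CAAHR replicate 31 was the lowest of all libraries for 17 of 34 members, where 16.8% of all tested genes had their lowest value in it. Within its own group it was the lowest for 26 members (76.5%), 11 of 14 core and 15 of 20 regulatory, beside 33.99% of all tested genes. Its mtDNA-encoded transcripts took 12.1% of counts, the other libraries having 7.86% to 9.93%, and its TMM factor of 1.05 was the highest; their part in the low member values was not tested. With library size only as scaling it was the lowest for 7 members, and GFP replicate 43 was the lowest for 21.

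Without CAAHR replicate 31 the fitted log2 fold changes had a median of 0.12 over the members, with 25 above 0. In that fit 0 members were called (4 at an unadjusted p under 0.05), beside 4.21% of all tested genes called. Without CAAHR replicate 36 the median was 0.0010 with 17 above 0. The count above 0 thus rested in part on which CAAHR libraries were used, and no fit called more than 2 members.

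**Figure D3:**
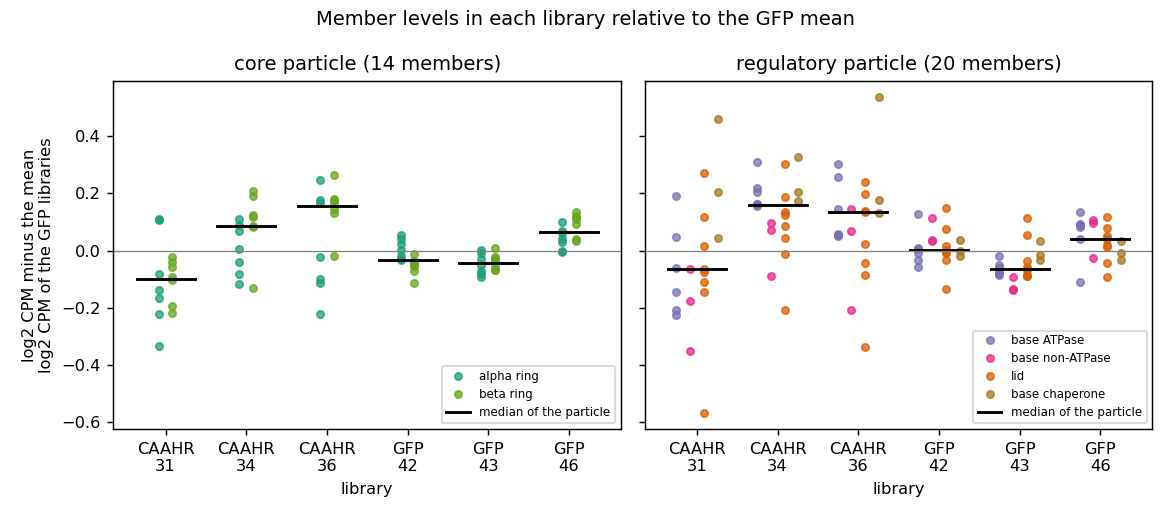
Each tested member's log2 CPM in each library, less its mean log2 CPM over the 3 GFP libraries, for the core particle (left, 14 members) and the regulatory particle (right, 20 members), coloured by role, with black bars at the median of the particle. Both particles lie lowest in CAAHR replicate 31 or GFP replicate 43 and the chaperones of the base lie above 0 in all 3 CAAHR libraries.

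Levels were compared between genes per kilobase of merged exon length, so that long transcripts do not count for more. In GFP muscles the 31 tested subunits lay between 15.1 CPM per kilobase (Psmb1) and 91.6 CPM per kilobase (Psma6), a ratio of 6.08. The chaperones lay below all of them, with Psmd9 at 2.18 ± 0.046 (SD, n = 3), Psmd5 at 2.24 ± 0.051 and Psmd10 at 5.79 ± 0.14 CPM per kilobase. In CAAHR muscles the same 3 were at 2.39 ± 0.12, 3.04 ± 0.22 and 6.56 ± 0.19 CPM per kilobase. In the GFP libraries the ranges of mean ± SD of Psmd5 and Psmd9 overlapped on this scale, with Psmd5 the higher. Per kilobase of the longest transcript Psmd5 and Psmd9 were at 3.68 ± 0.083 and 5.99 ± 0.13 CPM, so their order depends on the length used.

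Near the top in GFP muscles, Psma6 (91.6 ± 5.87), Psmc5 (86.4 ± 5.08), Psmc1 (86.2 ± 7.24) and Psmb5 (86.0 ± 6.18 CPM per kilobase) lay within their spread of each other. In CAAHR muscles Psmc5 was at 100.9 ± 10.1, Psmb5 at 91.6 ± 9.70, Psmc1 at 86.8 ± 11.2 and Psma6 at 82.1 ± 8.52 CPM per kilobase, where neighbours in this order lay within their spread of each other. At the lower end of the subunits, Psmb1 (15.1 ± 0.37), Psma2 (15.5 ± 0.56) and Psmd14 (15.9 ± 0.89 CPM per kilobase) in GFP muscles were as close. The levels depend on the length used. Per kilobase of the longest transcript the highest tested subunit in GFP muscles was Psmd8, at 117 CPM per kilobase, the lowest was Psma2, at 19.6, and the chaperones lay at 3.68 to 5.99, below all tested subunits on this scale too. In CAAHR muscles Psmd7 was the highest on this scale, at 113, with Psmd8 at 90.6, and the chaperones lay at 4.998 to 6.74.

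**Figure D4:**
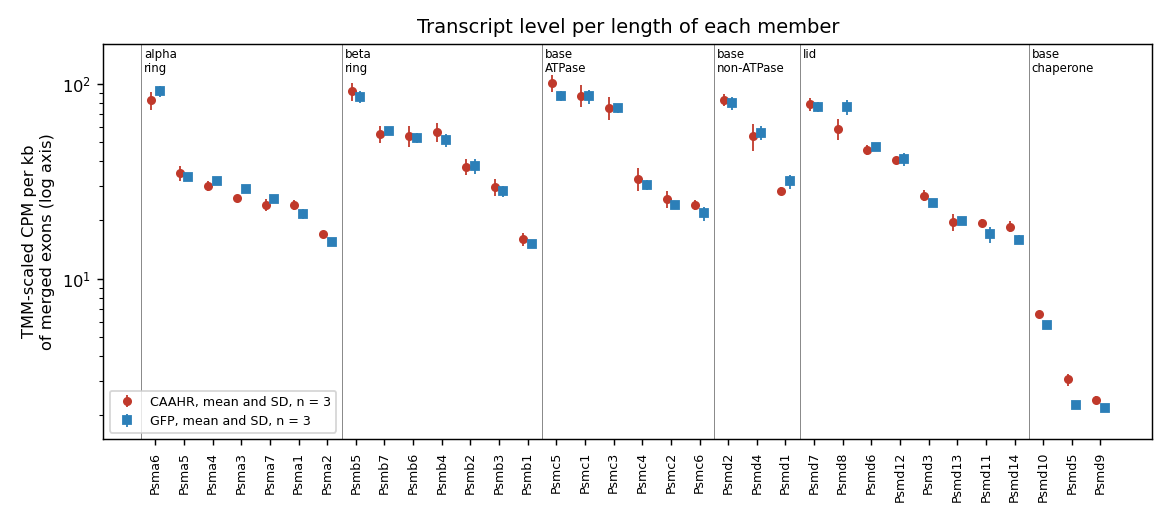
Mean TMM-scaled CPM per kilobase of merged exons (log axis) for each tested member in AAV9-HSA-CAAHR (red circles) and GFP muscles (blue squares), with SD over 3 libraries, ordered by level within each role. The 3 chaperones of the base lie between 2.18 and 6.56 and the subunits between 15.1 and 100.9.

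The immunoproteasome genes, which replace the catalytic beta subunits in immune cells and under interferon, were measured beside their constitutive counterparts. Psmb8, the counterpart of Psmb5, was at 2.20, 2.31 and 3.002 CPM in CAAHR muscles and 4.99, 8.15 and 4.72 CPM in GFP muscles. It fell by 1.24 on the log2 scale (SE 0.24, adjusted p 0.0144 by edgeR). Psmb9, the counterpart of Psmb6, was at 0.791, 0.700 and 1.23 CPM against 2.45, 4.13 and 1.96 CPM and fell by 1.64 on the log2 scale (SE 0.33, adjusted p 0.0193). Neither overlapped between groups, whereas the constitutive genes at the same sites did. Psmb9 shares 212 exonic bases with Tap1 on the opposite strand, and Psmb8 shares 498 with Gm20496, so reads there may not be separable. Tap1, an interferon response gene, was itself at a log2 fold change of -1.64 and was not called (adjusted p 0.0877 by edgeR).

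Psmb10, the counterpart of Psmb7, was at 6.96, 6.70 and 8.84 CPM against 7.63, 11.6 and 11.5 CPM, a log2 difference of -0.45 (SE 0.18, adjusted p 0.175), and its groups overlapped. With no filter on low counts Psmb10 was called, at -0.43 with an adjusted p of 0.039. The CPM of Psmb8 as a percent of that of Psmb5 was 3.04% ± 0.42 in CAAHR muscles and 7.80% ± 2.87 in GFP muscles (SD, n = 3). Psmb9 came to 0.896% ± 0.24 and 2.92% ± 1.29 of Psmb6, and Psmb10 to 4.001% ± 0.69 and 5.24% ± 1.04 of Psmb7. Per kilobase of merged exons, which allows a comparison of levels between genes, the 3 immunoproteasome genes summed to 2.69% ± 0.42 of the 3 constitutive catalytic genes in CAAHR muscles and to 4.37% ± 0.99 in GFP muscles. The call of Psmb8 was lost without CAAHR replicate 31 (log2 fold change -1.16, adjusted p 0.063), and that of Psmb9 without CAAHR replicate 31 (-1.55, adjusted p 0.0776) or GFP replicate 43 (-1.27, adjusted p 0.0507). Both were lost with the slow-fibre covariate (log2 fold changes -1.38 and -2.01, adjusted p 0.158 and 0.155), the highest of any alternative.

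Leukocyte markers moved with Psmb8 and Psmb9. The 3 general leukocyte markers, all called lower, summed to 4.78 to 5.18 CPM in CAAHR muscles and 10.4 to 29.7 CPM in GFP muscles. Of 7 B and plasma cell markers 4 were called lower, with sums of 9.61 to 19.3 against 127 to 432 CPM. Of 8 macrophage markers 0 were called by edgeR (6 at an unadjusted p under 0.05), with sums of 24.1 to 41.7 against 48.8 to 105 CPM. Of 7 T and NK cell markers 3 were tested and 1 was called lower, with sums of 1.001 to 1.66 against 2.42 to 9.54 CPM, and Cd3g, Cd4, Nkg7 and Lck had 0 counts in at least 1 CAAHR library. Of 7 interferon response genes 2 were called lower, with sums of 26.9 to 35.7 against 45.8 to 83.9 CPM. The part of these cells in the values of Psmb8 and Psmb9 was not tested. By quantitative PCR, the paper reports that selected immune genes were not lower in CAAHR muscle than in mice given no virus. It concludes that the GFP virus itself brings on an immune response in the muscle. The text of the paper does not name those genes.

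**Figure D5:**
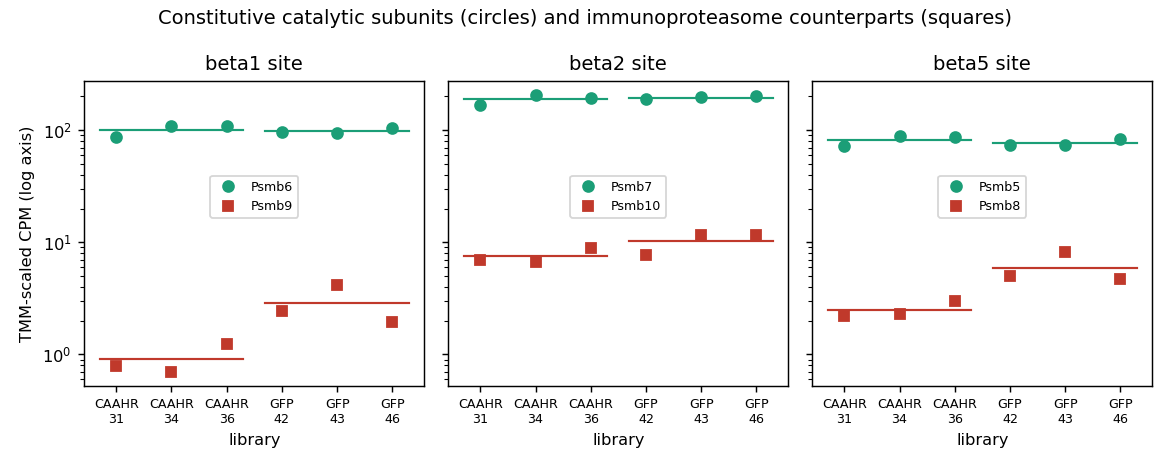
TMM-scaled CPM (log axis) of the catalytic subunits Psmb6, Psmb7 and Psmb5 (green circles) and their immunoproteasome counterparts Psmb9, Psmb10 and Psmb8 (red squares) in each library, with lines at the group means. The constitutive genes lie between 72.3 and 206 CPM in both groups, and Psmb8 and Psmb9 are lower in every CAAHR library than in every GFP library.

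Other genes of the pathway were read from lists of 41 tested genes, the 3 immunoproteasome genes included. Of these 4 were called higher and 2 lower, the last being Psmb8 and Psmb9, which makes 6 (14.6%) beside the 7.6% of all tested genes. Their median log2 fold change was 0.05. The calls were spread over the lists unevenly, with none among activators, subunits with other names, receptors, ubiquitin genes or muscle ligases.

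Of 6 genes for regulators of proteasome transcription 3 rose. Nfe2l1 encodes the transcription factor that raises proteasome genes when the protease is inhibited. It was at 1016, 1160.5 and 1277 CPM in CAAHR muscles and 796, 660.0 and 808 CPM in GFP muscles, a log2 fold change of 0.61 ± 0.13 (SE) with an adjusted p of 0.0251 by edgeR. Nfe2l2, its relative in the oxidative stress response, was at 54.4, 57.6 and 59.9 CPM against 37.5, 40.0 and 28.8 CPM, a log2 fold change of 0.69 ± 0.12 (SE) with an adjusted p of 0.0107. Mafk, a small MAF partner of both, was at 34.1, 33.2 and 33.4 CPM against 24.6, 25.04 and 26.3 CPM, a log2 fold change of 0.40 ± 0.08 (SE) with an adjusted p of 0.02. In all 3 genes every CAAHR library was above every GFP library.

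These calls were not equally firm. That of Nfe2l2 held without each library in turn and was lost with the slow-fibre covariate (log2 fold change 0.85, adjusted p 0.0696). That of Nfe2l1 was lost without CAAHR replicate 36 (log2 fold change 0.52, adjusted p 0.113), GFP replicate 42 (0.65, 0.058), GFP replicate 43 (0.52, 0.103) or GFP replicate 46 (0.66, 0.0635). That of Mafk was lost without CAAHR replicate 31 (0.39, 0.0609), CAAHR replicate 36 (0.40, 0.0775), GFP replicate 42 (0.39, 0.0673) or GFP replicate 43 (0.40, 0.0855). With the slow-fibre covariate Nfe2l1 was at 0.63 and Mafk at 0.35, and their adjusted p-values were 0.154 and 0.262, the highest of any alternative. The related Mafg was at 0.29 with an adjusted p of 0.0728, and Bach1, which competes for small MAF partners, at -0.02.

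Set beside their promoters, the 5 members with TGACNNNGC had log2 fold changes of 0.09 (Psmb5), 0.03 (Psmb6), 0.15 (Psmc6), 0.13 (Psmd9) and -0.02 (Psmd12), with adjusted p-values from 0.402 to 0.931. Psmd5, the called member, had no TGACNNNGC in its window. Whether NFE2L1, NFE2L2 or MAFK acts on any member was not tested, and members without a RefSeq window were not searched.

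Among 7 assembly and binding proteins 1 was called. Ecpas, which binds the assembled proteasome and tethers it to other compartments, was at 336, 346 and 357 CPM in CAAHR muscles and 283, 251 and 252 CPM in GFP muscles. Its log2 fold change was 0.40 ± 0.10 (SE), with an adjusted p of 0.0424 by edgeR, and the groups did not overlap. The call was lost without CAAHR replicate 31 (0.42, adjusted p 0.0805), CAAHR replicate 36 (0.37, 0.146), GFP replicate 42 (0.46, 0.0625), GFP replicate 43 (0.37, 0.163) or GFP replicate 46 (0.37, 0.125), under upper quartile scaling (0.33, 0.0778) and with the slow-fibre covariate (0.47, 0.157), these being the alternatives with the highest p. Pomp, the maturation factor of the core particle, was at 64.0, 73.5 and 73.9 CPM against 54.8, 55.4 and 62.1 CPM, a log2 fold change of 0.29 with an adjusted p of 0.103. Psmg1, which pairs alpha subunits, had the lowest value of the list, -0.14.

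Activators, receptors and ubiquitin genes gave no call in the main edgeR fit. Of the 6 activator and inhibitor genes, Psme3 was highest at 0.16 and Psme2b lowest at -0.38 (adjusted p 0.33), the last being a near copy of Psme2 whose reads may not be separable. The regulatory subunits with other names, Adrm1 and Sem1, were at -0.05 and 0.07. Of 9 receptors, deubiquitinases and ligases that act at the proteasome, Ube3c was highest at 0.26 (adjusted p 0.139) and Usp14 lowest at -0.09, and 1 had an unadjusted p under 0.05. Among 6 ubiquitin and E1 genes, Uba1, the main ubiquitin-activating enzyme, was highest at 0.27, with an adjusted p of 0.106 by edgeR that fell to 0.0423 with DESeq2 and to 0.0429 with library size only as scaling. The polyubiquitin gene Ubb was at 532 ± 68.2 CPM in CAAHR muscles and 532 ± 10.7 CPM in GFP muscles (SD, n = 3). The ubiquitin ligases of muscle wasting were at -0.11 for Fbxo32 and 0.19 for Trim63, with adjusted p-values of 0.835 and 0.427.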

How the data were processed

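The authors deposited raw counts per gene. By their account poly(A)-selected RNA was read from both ends. Trimmomatic 0.36 removed adapters and STAR 2.5.2b mapped the remainder to GRCm38 (versions per the submitters' processing notes). Unique exonic hits per gene came from featureCounts, with neither normalization nor pooling. Strandedness was not given in the sources used here. All value columns were used (0 left out). The test used edgeR 4.0.16 (R 4.3.3): filterByExpr, TMM (trimmed mean of M values) scaling, and the robust quasi-likelihood F test over all 15847 genes passing the filter, with Benjamini-Hochberg adjustment at 0.05. Standard errors were derived from the F statistic. The calculation was tested on simulated data. Within groups, chi-square per degree of freedom was at least 23.7 for each of 6 pairs of libraries, so no library repeated another.

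Alternatives were DESeq2 1.42.0, limma 3.58.1 voom, other scalings and filters, a slow-fibre covariate, and leaving out each library. Symbols were matched exactly, and Paaf1 of the pathway lists had no row under that symbol. Lengths, positions and shared 75-base windows came from GENCODE M21 (99.3% of identifiers matched). Named were members with an adjusted p under 0.05, the highest and lowest of each role or list, the catalytic genes with their counterparts, called pathway genes and the 2 members of lowest level. Psmd9, Psmd10, Psmd14, Psma2, Psmd4, Pomp, Mafg and the members named by promoter match or level were added after their values were seen. Members and lists were chosen with earlier results of these data known.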

Additional observations from a re-analysis of the deposited data

How the results depend on the processing

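Of 495 checks of 33 named genes under 15 alternatives, 428 kept direction and side of the threshold, 29 lost a call, 6 gained one and 32 changed sign. The cause of each shift was not tested. The count of members called was 1, and 2 with no filter on low counts or with DESeq2, 0 with the slow-fibre covariate, and 0 to 2 leaving out single libraries. The count of pathway genes called was 6, and 9 with library size only, 8 with DESeq2, 7 with no filter and 5 with upper quartile scaling. It was 0 with the covariate and 2 to 6 leaving out libraries. The share of all tested genes called was 7.6% in the main fit, 9.31% with library size only, 12.1% with DESeq2 and 8.62% with no filter. That share was 8.51% with upper quartile scaling, 2.81% with the covariate and 3.28% to 10.7% leaving out libraries. The core median less the regulatory median was -0.10 with the covariate and -0.083 to 0.0021 leaving out libraries. The covariate, the mean log2 CPM of slow-fibre markers, was 5.80 to 7.89 in CAAHR muscles and 4.21 to 5.44 in GFP muscles, so it and the group cannot be fully told apart.

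Signs turned as follows. With upper quartile scaling Psmb6 was at -0.041, Psmc3 at -0.068, Psmd2 at -0.014 and Sem1 at -0.00060. With library size only Psmb7 was at 0.033, Adrm1 at 0.031, Ubb at 0.079 and Bach1 at 0.060. With the covariate Psmb7 was at 0.10, Adrm1 at 0.0019, Sem1 at -0.20, Ubb at 0.17, Bach1 at 0.040 and Fbxo32 at 0.21. Psmc3 was at -0.0054 with DESeq2 size factors, -0.0053 with DESeq2 and -0.0039 with at least 10 counts in every library, and Ubb at 0.014 with no filter. Leaving out libraries, Psmb6 ranged from -0.034 to 0.13, Psmb7 from -0.12 to 0.027, Psmc3 from -0.090 to 0.10, Adrm1 from -0.11 to 0.036, Sem1 from -0.0068 to 0.15, Ubb from -0.078 to 0.096, Bach1 from -0.17 to 0.12 and Fbxo32 from -0.34 to 0.064. Replicate numbers are not shared by the groups, so no pairing was fitted. With 3 libraries a group, an interval that includes 0 does not show that a gene did not differ.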
